A study of Mus musculus with 7 samples.

Results

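The genes described here encode lipins and acyltransferases of glycerolipid assembly, the route from glycerol 3-phosphate to triglyceride. They were chosen by gene symbol: 9 genes (Gpam, Agpat2, Agpat3, Lpin1, Lpin2, Lpin3, Mogat1, Dgat1 and Dgat2), each with 1 probe set, among 16819 genes compared in whole mouse liver. RNA came from male Dicer1 fl/fl mice of a mixed 129S4 and C57BL/6 background, in 3 groups. The control group (0 weeks, 3 arrays) carried the floxed alleles without Cre. The age listed for this group was 8 to 10 weeks. The other groups were taken 2 weeks (2 arrays) and 4 weeks (2 arrays) after an injection of AAV8-Ttr-Cre at 8 to 10 weeks of age. Here an adeno-associated virus brings in Cre, driven by the transthyretin (Ttr) promoter of hepatocytes, to delete Dicer1, the ribonuclease that makes mature microRNAs. Other liver cell types are thus not aimed at, though their RNA is in the samples. All mice were fasted for 4 hours before the liver was taken. The labels list no group given a virus without Cre and no control at 2 or 4 weeks, so loss of Dicer1, the virus, Cre and elapsed time cannot be told apart.

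In the liver, triglyceride is built by adding acyl chains to glycerol 3-phosphate in steps. Glycerol 3-phosphate acyltransferases (such as Gpam, the mitochondrial enzyme) add the first chain, and acylglycerophosphate acyltransferases (the Agpat genes) add the next to give phosphatidate. Lipins are phosphatidate phosphatases that turn phosphatidate into diacylglycerol. Lpin1 also acts in the nucleus as a coactivator of genes of fatty acid oxidation, and its transcript rises in fasted liver and follows glucocorticoids. Diacylglycerol is then acylated to triglyceride by Dgat1 or Dgat2, which are unrelated in sequence. Mogat1 makes diacylglycerol from monoacylglycerol and so enters the route by another door.

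Of the 9 genes, Lpin1 fell most steeply and Dgat2 fell by less, while the lower values of Gpam did not pass the test. RefSeq promoter windows (250 bases before to 50 after an annotated start, build GRCm38.p6) were matched by symbol for 7 of the 9 genes, all but Dgat1 and Dgat2. The windows of Lpin1 and of the upstream start of Gpam are printed because these genes and Dgat2 were the members lower on every array after Cre. The Lpin1 window lies at chr12:16610917-16611216 on the minus strand, inside the annotated gene and downstream of its 5′ end, so the region before the upstream end of the gene was not searched. The Gpam window lies at chr19:55127189-55127488, also on the minus strand. Capitals mark motif matches: a nuclear receptor half-site in Lpin1 and a CCAAT box, read on the opposite strand, in Gpam.
Lpin1: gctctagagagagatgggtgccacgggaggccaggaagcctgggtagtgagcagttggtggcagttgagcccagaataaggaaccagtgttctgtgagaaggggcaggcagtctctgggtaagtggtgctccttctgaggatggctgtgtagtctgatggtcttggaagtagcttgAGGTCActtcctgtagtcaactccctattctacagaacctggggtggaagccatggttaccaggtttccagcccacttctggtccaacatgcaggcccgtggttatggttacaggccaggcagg
Gpam: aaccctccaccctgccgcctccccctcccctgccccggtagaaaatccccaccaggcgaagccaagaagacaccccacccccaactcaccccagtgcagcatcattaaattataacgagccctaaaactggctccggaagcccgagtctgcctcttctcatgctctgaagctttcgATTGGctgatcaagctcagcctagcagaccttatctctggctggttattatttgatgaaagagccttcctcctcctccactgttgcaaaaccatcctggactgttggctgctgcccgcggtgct

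Searched on both strands, the half-site AGGTCA began at base 177 of the Lpin1 window and was present in 16.3% of 32851 mouse promoter windows of the same length. It was also in the other window of Gpam, from base 55. The CCAAT box of Gpam, which began at base 177 of its own window, was present in 37.4% of windows, among them a window of Lpin2, with 3 matches, and that of Mogat1. The E-box CACGTG, the site of the clock factors Clock and Arntl, was found in a window of Lpin2 and one of Lpin3 and in 7.15% of all windows, but not in the 1 Lpin1 window searched. The cyclic AMP site TGACGTCA (1.79% of all windows) and the D-box forms TTATGTAA (0.938%) and TTACGTAA (0.119%) were in no window of a member. No overlap between matches of different motifs was seen in the printed windows.

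The arrays carried log2 signals with medians between 7.07 and 7.09. Along the first principal component (62% of the variance) controls lay between -23.8 and -22.4, the 2 week arrays at 6.56 and 24.3, and the 4 week arrays at 18.4 and 19.8. Dicer1 itself had log2 fold changes of -0.76 (SE 0.09, limma adjusted p = 0.0158) 2 weeks after Cre and -0.66 (SE 0.09, limma adjusted p = 0.0159) 4 weeks after it. Alb, the main plasma protein of hepatocytes, read 14.46 to 14.52 after Cre and 14.49 to 14.51 in controls. The summed signal of 7 hepatocyte markers was 16.91 to 16.94 after Cre and 16.99 to 17.03 in controls, where only the tyrosine aminotransferase gene Tat was called lower. The sums of 6 Kupffer cell, 5 endothelial, 3 adipocyte, 4 lymphocyte, 3 neutrophil and 3 muscle markers overlapped between the groups, with 0 markers called by limma for both times together. The sum of 5 stellate markers was 12.06 to 12.24 after Cre and 11.87 to 11.97 in controls (1 called, Pdgfrb), and that of 4 bile duct markers 8.95 to 9.12 after Cre and 8.80 to 8.92 in controls (1 called, Sox9). The part of these shifts in the results below was not tested. In whole liver, fewer cells of a type and less RNA per cell cannot be told apart.

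Of the 9 genes, 1 was called lower at 2 weeks (Dgat2), 2 were called lower at 4 weeks (Lpin1 and Dgat2), and 0 were called higher at either time (limma, adjusted p under 0.05 over all genes; 5 and 4 of the 9 had an unadjusted p under 0.05). Among all genes, 2.47% were called lower and 3.46% higher at 2 weeks, and 4.62% lower and 5.15% higher at 4 weeks. An unadjusted limma p under 0.05 was also common among all 16819 genes: 3862 had one at 2 weeks and 4169 at 4 weeks. For the mean of both times against control, 2 of the 9 were lower, against 6.12% of all genes lower and 6.79% higher. With 1 array left out, the counts were 0 to 1 at 2 weeks, 0 to 3 at 4 weeks and 0 to 4 for both times. They were 1, 3 and 4 without 2 week replicate 1 and 1, 3 and 3 without 2 week replicate 2, the arrays that stood farthest apart within a group. Where the array left out is 1 of 2, the comparison of that time rests on a lone array. That array is assumed to vary like the other groups, the only source of the spread at that time. The 4 week counts without 2 week replicate 1 and without 2 week replicate 2 are the same result, not 2 separate ones. In both, the spread comes from the controls and the 4 week arrays alone. The 3 genes there were Lpin1, Gpam and Agpat3, without Dgat2. At neither time was Dgat2 called with any 1 array left out. The counts were 0 at 2 and at 4 weeks without control replicate 1, 2 or 3 or 4 week replicate 1 or 2. The median log2 fold change of the 9 genes was -0.15 at 2 weeks and -0.26 at 4 weeks, against 0.00 and 0.01 for all genes. Signals after Cre lay below all 3 controls for 3 of the 9 (Gpam, Lpin1 and Dgat2), as for 12.2% of all genes.

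**Figure D1:**
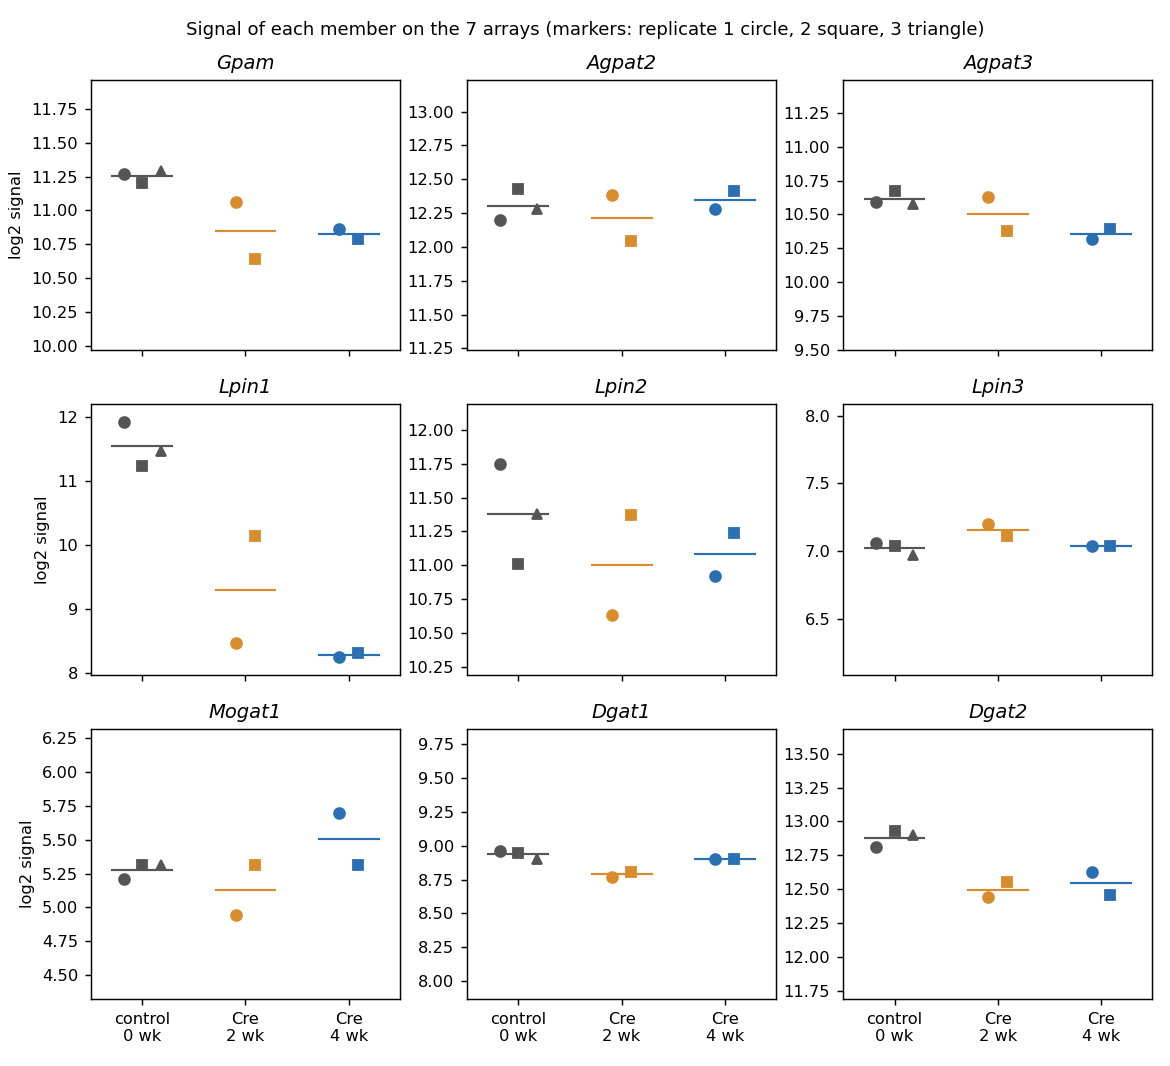
Log2 signal (vertical axis) of each of the 9 genes on the 7 arrays, by group (horizontal axis: control at 0 weeks, then 2 and 4 weeks after Cre). Points are arrays, marker shapes are replicate numbers, and bars are group means. Vertical axes cover different levels but span at least 2 log2 units each. Lpin1 lies between 8.25 and 10.14 after Cre and between 11.23 and 11.92 in controls, while Agpat2 and Dgat1 stay within narrow bands.

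Gpam, which starts the route at the mitochondrial outer membrane, had control signals of 11.27, 11.20 and 11.29, then 11.06 and 10.64 at 2 weeks, and 10.86 and 10.79 by 4 weeks. Every array after Cre was below the lowest control, and 2 week replicate 1 was the nearest to it. The log2 fold changes were -0.40 (SE 0.12, limma adjusted p = 0.126) at 2 weeks and -0.43 (SE 0.12, limma adjusted p = 0.0967) at 4 weeks, so neither passed in the main fit. The 4 week value did pass with only the compared groups fitted (limma adjusted p = 0.0154) and with array weights (limma adjusted p = 0.0347). It kept the main result in 13 of 17 alternatives. With 1 array left out, the 2 week value ran from -0.62 to -0.19. For both times together the difference was -0.42 (SE 0.10, 95% interval -0.67 to -0.16, limma adjusted p = 0.0569). It passed when 2 week replicate 1 or 2 was left out, at -0.52 (limma adjusted p = 0.00675) and -0.31 (limma adjusted p = 0.0263).

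Agpat2, whose loss in people and mice causes lipodystrophy with fatty liver, read 12.20, 12.43 and 12.28 in controls, 12.38 and 12.04 at 2 weeks, and 12.28 and 12.41 by 4 weeks. The groups overlapped at both times. Its log2 fold change over both times was -0.02, with a 95% interval of -0.28 to 0.23. Agpat3, another acyltransferase that makes phosphatidate, read 10.59, 10.67 and 10.58 in controls, 10.63 and 10.38 at 2 weeks, and 10.32 and 10.39 by 4 weeks. Both 4 week arrays were below the controls, but the difference of -0.26 (SE 0.08, limma adjusted p = 0.126) did not pass. With only the 4 week arrays and the controls fitted, the same difference had a limma adjusted p of 0.0396. Leaving out 2 week replicate 1 or 2 gives this same result, as a lone 2 week array adds nothing to the spread.

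Lpin1, the lipin best known in liver and fat, had control signals of 11.92, 11.23 and 11.46, then 8.47 and 10.14 at 2 weeks, and 8.25 and 8.31 by 4 weeks. The 2 week arrays stood far apart and the 4 week arrays close together, and all 4 were below every control. At 4 weeks Lpin1 was 9.57-fold lower (log2 -3.26, SE 0.49, limma adjusted p = 0.0203, n = 2 and 3). At 2 weeks the log2 fold change was -2.23 (SE 0.49, 95% interval -3.46 to -1.01), which did not pass (limma adjusted p = 0.0603). It was -3.07 without 2 week replicate 2 (limma adjusted p = 0.0376) and -1.40 without 2 week replicate 1 (limma adjusted p = 0.0516), each from a lone 2 week array with the spread taken from the other groups. With all arrays, the 2 week value passed with quantile normalization, a common median or dim genes left out (limma adjusted p = 0.0485, 0.0475 and 0.0382). It did not pass with array weights or a replicate block (limma adjusted p = 0.0766 and 0.216). Nor did it pass with an intensity trend, a robust prior, the mean of probe sets or every probe set tested (limma adjusted p = 0.0628, 0.0523, 0.0599 and 0.0657). With only the compared groups fitted, so without the 4 week arrays, it did not pass either (limma adjusted p = 0.134). The difference between 4 and 2 weeks was -1.02 (SE 0.54, limma adjusted p = 0.748, 95% interval -2.37 to 0.32). The 4 week call was lost without control replicate 1, 2 or 3 (limma adjusted p = 0.0698, 0.0692 and 0.08) and without 4 week replicate 1 or 2 (limma adjusted p = 0.11 and 0.113), with log2 values of -3.41 to -3.07 throughout. For both times together Lpin1 was 6.71-fold lower (log2 -2.75, SE 0.41, limma adjusted p = 0.0152), and that call was lost without the same 5 arrays (limma adjusted p = 0.0597 to 0.0726).

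Lpin2, which in people is mutated in Majeed syndrome, an inflammatory bone disease, read 11.75, 11.01 and 11.38 in controls, 10.63 and 11.37 at 2 weeks, and 10.92 and 11.24 by 4 weeks. All but 2 week replicate 1 and 4 week replicate 1 lay within the range of the controls. Its log2 fold change was -0.38 at 2 weeks (95% interval -1.12 to 0.36, limma adjusted p = 0.506) and -0.30 at 4 weeks (-1.04 to 0.44, limma adjusted p = 0.608). Lpin3, the third lipin, read 7.06, 7.04 and 6.97 in controls, 7.20 and 7.11 at 2 weeks, and 7.04 on both arrays at 4 weeks. The 2 week arrays were slightly above the controls (log2 0.13, SE 0.05, limma adjusted p = 0.191), and the 4 week arrays were not.

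Lpin1 and Lpin2 had the same order among the controls, both highest in replicate 1 and lowest in replicate 2. Their difference within an array was -2.93 to -1.22 log2 units after Cre, against 0.08 to 0.22 in controls. The mean difference was -2.25 ± 0.75 after Cre (SD, n = 4) and 0.16 ± 0.07 in controls (SD, n = 3). The shift of -2.41 had an exact permutation p of 0.0571 (two-sided), the smallest that 35 arrangements of the arrays allow, and 0.0571 after adjustment over 3 pairs. Lpin1 minus Lpin3 shifted by -2.82 and Dgat2 minus Dgat1 by -0.27, with the same exact permutation p and no overlap between the groups. This design cannot reach 0.05, and the values show unequal change within each pair on these arrays.

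Mogat1, the monoacylglycerol acyltransferase, read 5.21, 5.31 and 5.31 in controls, 4.94 and 5.31 at 2 weeks, and 5.70 and 5.31 by 4 weeks. One value was shared exactly by 4 of its 7 arrays, which was true of 21.2% of all probe sets (33.9% of the dimmer part and 8.55% of the brighter part). No detection call came with the values, so whether Mogat1 was above background is not known here. Its log2 fold change over both times was 0.04 (95% interval -0.28 to 0.36).

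Dgat1, which re-esterifies fatty acids at the endoplasmic reticulum, read 8.96, 8.95 and 8.90 in controls, 8.77 and 8.81 at 2 weeks, and 8.90 on both arrays at 4 weeks. Both 2 week arrays were below the controls by a small step (log2 -0.15, SE 0.04, limma adjusted p = 0.101), and at 4 weeks the value was -0.04 (SE 0.04, limma adjusted p = 0.657). Exactly equal values stood on 3 of the 7 arrays for Dgat1, and likewise for Lpin3. Spreads built from such values can be too small.

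Dgat2, which in mice makes most of the triglyceride of newly made fatty acids, read 12.81, 12.93 and 12.90 in controls, 12.44 and 12.55 at 2 weeks, and 12.63 and 12.46 by 4 weeks. All arrays after Cre were below all controls. It was 1.31-fold lower at 2 weeks (log2 -0.39, SE 0.07, limma adjusted p = 0.0453, n = 2 and 3) and 1.26-fold lower at 4 weeks (log2 -0.33, SE 0.07, limma adjusted p = 0.0487, n = 2 and 3). Both calls sat just under the threshold. Leaving out any single array gave log2 values of -0.44 to -0.33 at 2 weeks (limma adjusted p = 0.0672 to 0.145) and -0.42 to -0.25 at 4 weeks (limma adjusted p = 0.0605 to 0.182), and quantile normalization gave limma adjusted p-values of 0.0529 and 0.0636. For both times together it was -0.36 (SE 0.06, limma adjusted p = 0.021), with limma adjusted p-values of 0.0549, 0.0878, 0.0898 and 0.0586 without control replicate 1, 2 or 3 or 4 week replicate 2.

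**Figure D2:**
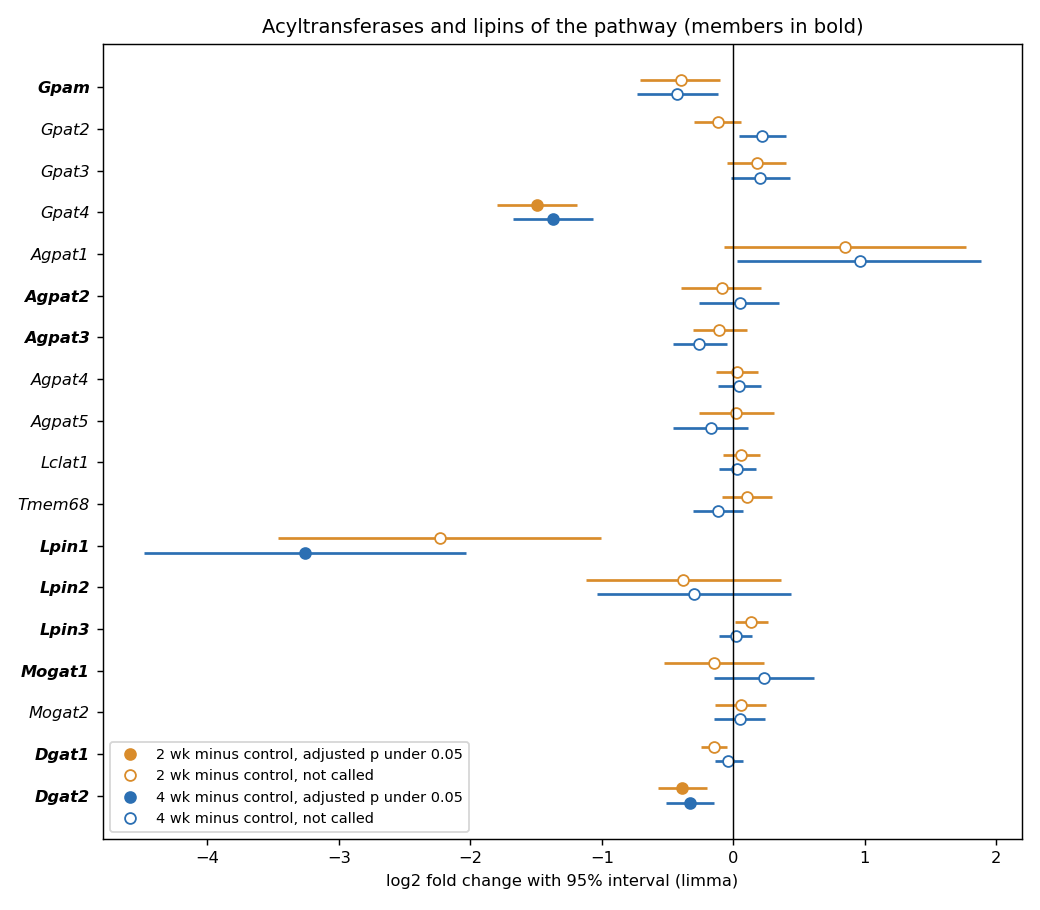
Log2 fold change (horizontal axis) with its 95% interval for 18 acyltransferase and lipin genes (vertical axis, members in bold), at 2 weeks (orange) and 4 weeks (blue) against control. Filled points passed an adjusted p of 0.05. Gpat4 and Lpin1 lie farthest below 0, Dgat2 passes with a change under 0.4, and the interval of Agpat1 is the widest above 0.

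Of 9 other acyltransferases of the route, 1 fell at each time and 0 rose. Among all genes, 2.47% were called lower at 2 weeks and 4.62% at 4 weeks. The acyltransferase that fell was Gpat4, a glycerol 3-phosphate acyltransferase of the endoplasmic reticulum that performs the same step as Gpam. Gpat4 read 10.71, 10.53 and 10.62 in controls, 9.31 and 8.94 at 2 weeks, and 9.19 and 9.31 by 4 weeks. All arrays after Cre were more than 1 log2 unit below the lowest control. It was 2.82-fold lower at 2 weeks (log2 -1.49, SE 0.12, limma adjusted p = 0.00784) and 2.59-fold lower at 4 weeks (log2 -1.37, SE 0.12, limma adjusted p = 0.00851). The call was lost at 2 weeks without control replicate 3 (limma adjusted p = 0.0568) and at 4 weeks without 4 week replicate 1 or 2 (limma adjusted p = 0.067 and 0.0609), with log2 values of -1.68 to -1.31 throughout.

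The median of the 9 other acyltransferases over both times was 0.04. Agpat1, which makes phosphatidate as Agpat2 does, read 8.36, 8.63 and 8.06 in controls, 8.58 and 9.81 at 2 weeks, and 9.21 and 9.39 by 4 weeks. Of the arrays after Cre, 2 week replicate 1 alone fell within the control range. The difference over both times was 0.90 (SE 0.31, limma adjusted p = 0.129) and became 1.21 (limma adjusted p = 0.0212) without that array. Lclat1, a cardiolipin-remodelling acyltransferase of the same family, was at 0.04 (limma adjusted p = 0.605).

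Upstream of the first acylation, 2 of 9 measured genes rose over both times and 0 fell, with a list median of 0.10. Among all genes, 6.79% were called higher and 6.12% lower over both times, the background for this list and those below. Gpd1, which makes glycerol 3-phosphate from a glycolytic intermediate, read 11.49, 11.44 and 11.46 in controls, 11.86 and 11.61 at 2 weeks, and 12.13 and 11.99 by 4 weeks. It rose 1.35-fold over both times (log2 0.43, SE 0.07, limma adjusted p = 0.0193). Acsl5, which activates fatty acids to acyl-CoA, rose 1.37-fold (log2 0.46, SE 0.08, limma adjusted p = 0.0214). Both had all arrays after Cre above all controls. Both calls were lost without control replicate 1, 2 or 3 or 4 week replicate 1 or 2 (limma adjusted p = 0.0542 to 0.0907). The glycerol channel Aqp9 was at 0.02 (limma adjusted p = 0.835) and the acyl-CoA synthetase Acsl4 at -0.21 (limma adjusted p = 0.33).

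Among 13 measured genes that use or return phosphatidate and diacylglycerol, 2 rose and 1 fell over both times, with a median of 0.02. Cept1, which joins diacylglycerol to choline or ethanolamine, read 9.59, 9.83 and 9.69 in controls, 10.09 and 10.22 at 2 weeks, and 10.44 and 10.40 by 4 weeks, and rose over both times (log2 0.59, SE 0.07, limma adjusted p = 0.00894). Chpt1, which makes phosphatidylcholine from diacylglycerol, fell 1.86-fold (log2 -0.89, SE 0.19, limma adjusted p = 0.0378). The kinase Dgkd, which returns diacylglycerol to phosphatidate, rose 1.14-fold (log2 0.19, SE 0.04, limma adjusted p = 0.0321). The Chpt1 call was lost without control replicate 1, 2 or 3 or 4 week replicate 1 or 2 (limma adjusted p = 0.1 to 0.139). The Dgkd call was lost without any single array but 2 week replicate 1 (0.0577 to 0.109), and the Cept1 call without control replicate 3 (0.0525). The lipid phosphatase Plpp3 was at 0.12 (limma adjusted p = 0.281) and Cds2, which takes phosphatidate towards phosphatidylinositol, at 0.08 (limma adjusted p = 0.511).

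Of 16 genes reported to regulate these enzymes or lipin proteins, 2 rose and 1 fell over both times, with a median of 0.13. Insig2, which holds the SREBP precursors in the endoplasmic reticulum, rose 2.86-fold (log2 1.51, SE 0.07, limma adjusted p = 0.0013), with 12.53 and 12.64 at 2 weeks and 12.50 and 12.67 at 4 weeks, against 11.07, 11.18 and 10.97 in controls. Mlxipl, which encodes a glucose-responsive activator of lipid synthesis genes, rose by 0.58 on the log2 scale (SE 0.10, limma adjusted p = 0.0193). Nr1h3, the liver X receptor alpha gene, was 1.23-fold lower (limma adjusted p = 0.0264). The Mlxipl call was lost without control replicate 1, 2 or 3 or 4 week replicate 1 or 2 (limma adjusted p = 0.0634 to 0.0857). The Nr1h3 call was lost without control replicate 1, 2 or 3 or 2 week replicate 1 or 2 (limma adjusted p = 0.0516 to 0.102). Srebf1, whose product switches on fatty acid synthesis genes, was at -0.41 (SE 0.20, limma adjusted p = 0.265) and Insig1 at -0.07 (limma adjusted p = 0.682).

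Among 14 fasting and glucocorticoid responsive genes, 2 rose and 3 fell over both times, with a median of -0.24. Tsc22d3, a glucocorticoid target, was 2.78-fold lower (log2 -1.48, SE 0.11, limma adjusted p = 0.00396), and Per1, a target of both glucocorticoids and the clock, 2.28-fold lower (log2 -1.19, SE 0.22, limma adjusted p = 0.0251). The third was Tat, chosen after its values were seen, at 13.25 to 13.70 after Cre and 14.06 to 14.18 in controls. Pdk4, which restrains glucose oxidation in fasting, rose 2.37-fold (log2 1.24, SE 0.11, limma adjusted p = 0.00452), and Igfbp1, which insulin lowers, 3.02-fold (log2 1.59, SE 0.32, limma adjusted p = 0.0304). The Per1 call was lost without control replicate 1, 2 or 3 or 4 week replicate 1 or 2 (limma adjusted p = 0.0758 to 0.105), and the Igfbp1 call without any single array but control replicate 2 (limma adjusted p = 0.0579 to 0.11). Pck1 was at 0.09 (limma adjusted p = 0.627) and G6pc at -0.23 (limma adjusted p = 0.226), both gluconeogenic enzymes.

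Of 16 measured clock genes, 3 rose and 7 fell for the mean of both times, with a median of -0.59. At 2 weeks 2 rose and 6 fell, and at 4 weeks 3 rose and 6 fell. The mean hides opposite or unequal values in a pair of them, named after their values were seen. Nr1d1, counted as risen, was lower at 2 weeks (log2 -0.71, limma adjusted p = 0.027) and higher at 4 weeks (1.94, limma adjusted p = 0.00284). Nr1d2, a related repressor counted as fallen, was at -1.54 at 2 weeks (limma adjusted p = 0.0068) and -0.07 at 4 weeks (limma adjusted p = 0.754). The period gene Per3 (log2 -1.25), the clock output factor Dbp (-2.04) and the repressor Ciart (-2.75) fell and Arntl, the partner of Clock, rose (1.82), with limma adjusted p-values of 0.00209 to 0.00407, while Bhlhe40 (-0.92, limma adjusted p = 0.111) and Hlf (-0.40, limma adjusted p = 0.195) did not pass. No label gives the hour at which livers were taken, and its part in the fall of Lpin1, whose transcript cycles over the day in mouse liver, was not tested.

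**Figure D3:**
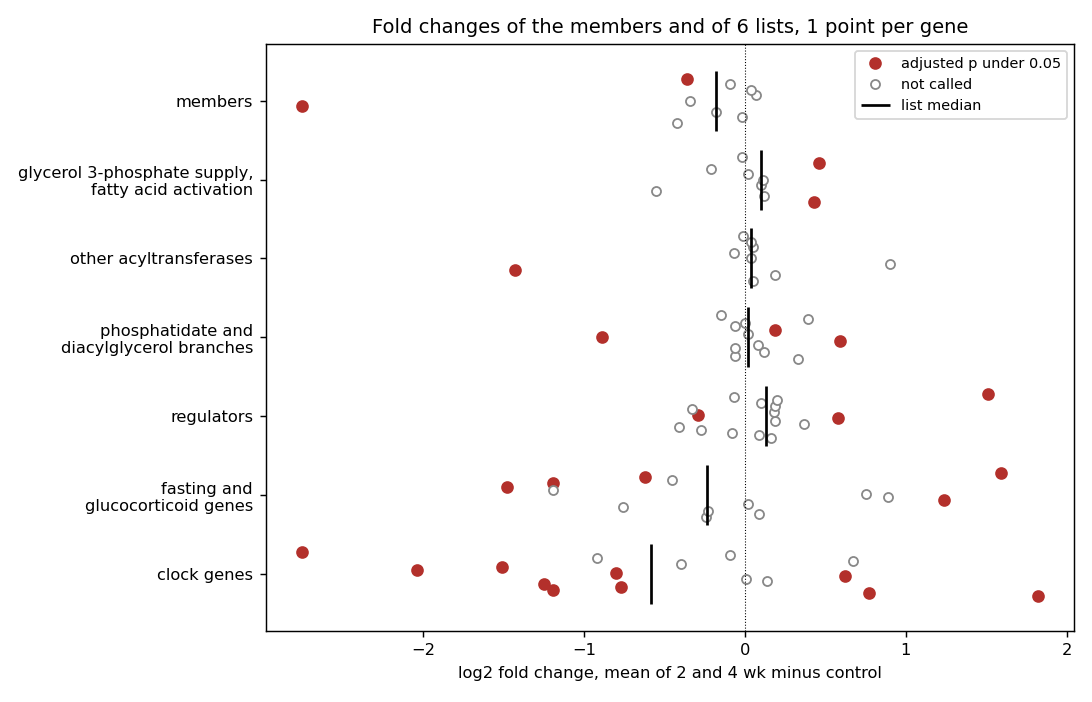
Log2 fold change (horizontal axis), mean of 2 and 4 weeks against control, for the 9 members and the genes of 6 lists (vertical axis), 1 point per gene. Filled points passed an adjusted p of 0.05 and vertical bars are list medians. The members' median is -0.18 and that of the clock list -0.59, and every list holds genes on both sides of 0.

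The genes with the profile most like that of Lpin1 were Slc8a1, Mt1, Thrsp, Wee1 and Nrg4. Likeness was the root mean square difference over the 7 arrays, in log2 units, of signals taken relative to each gene's control mean, and it ran from 0.52 for the sodium-calcium exchanger gene Slc8a1 to 0.69 for the growth factor gene Nrg4. Slc8a1 was at -2.06 at 2 weeks and -2.68 at 4 weeks, and Lpin1 at -2.23 and -3.26. The signals of Slc8a1 after Cre were low, with 4.39 and 4.74 at 4 weeks. As for Mogat1, whether they were above background is not known here. The metallothionein gene Mt1 was at -2.20 (limma adjusted p = 0.066) and -2.60. On 2 week replicates 1 and 2, Slc8a1 read 4.90 and 5.47, Mt1 8.29 and 8.71, and Thrsp, a gene tied to fatty acid synthesis, 9.62 and 10.05. As with Lpin1 (8.47 and 10.14), the drop was smaller on replicate 2, though by a narrower gap. The cell cycle kinase gene Wee1 read 6.81 and 6.82 on the 2 week arrays and Nrg4 6.05 and 6.11, nearly equal values. All 5 genes were picked for likeness on these same arrays, so a shared pattern is a description and not separate evidence.

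**Figure D4:**
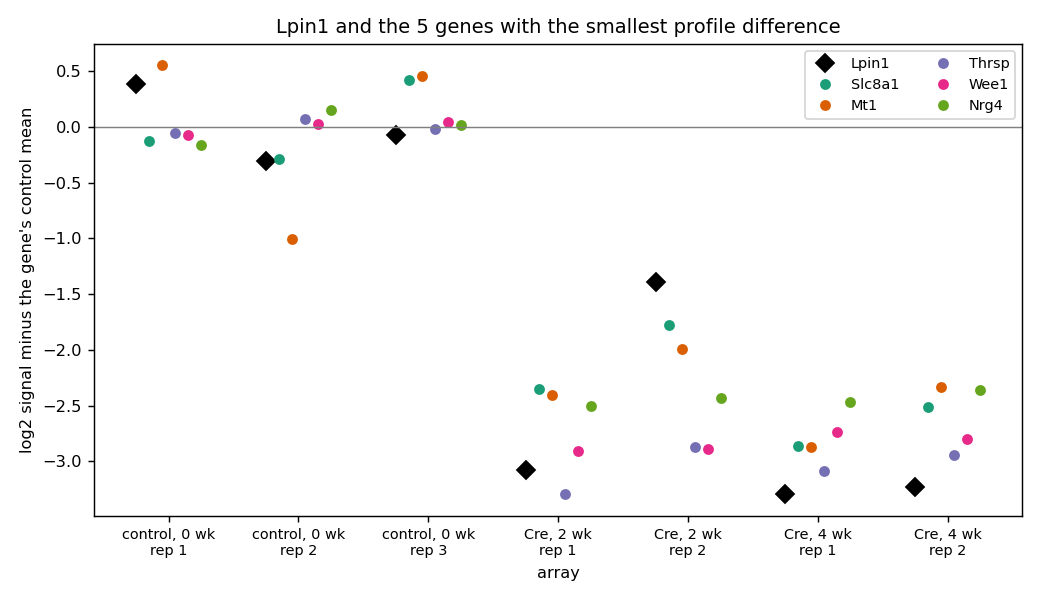
Log2 signal minus the gene's control mean (vertical axis) on each of the 7 arrays (horizontal axis) for Lpin1 (black diamonds) and the 5 genes with the smallest profile difference (circles). All 6 genes lie near 0 or within about 1 log2 unit of it in controls and below -1 after Cre, and Lpin1 is the highest of them on 2 week replicate 2.

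Between 4 and 2 weeks, 0 of the 9 genes differed (limma, adjusted p under 0.05; 0 of 9 also at an unadjusted p under 0.05), as for nearly all genes: 1 of 16819, or 0.00595%, was called. Among all 16819 genes, 1250 had an unadjusted limma p under 0.05. The members' differences ran from -1.02 (Lpin1) to 0.38 (Mogat1), with 2 arrays in each group.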

How the data were processed

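Whole liver RNA was measured on 7 whole-transcript arrays, 1 per liver sample. The log2 signals per probe set were used as deposited by the authors. The scale was read from the values (3.15 to 14.72). Per the submitters' processing notes the tools include GCOS 1.4, its role unstated. How probe sets were summarised and normalized is not given in the labels or notes. Of 21093 probe sets, 17709 had 1 gene symbol in the platform annotation, 187 several and 3197 none. The probe set with the highest mean was kept per gene, which left 16819 genes. RefSeq tables (GRCm38.p6) matched 17648 named probe sets by gene number.

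A model with the groups control, 2 weeks and 4 weeks was fitted with limma 3.58.1 in R 4.3.3 (lmFit, eBayes, 4 residual and 1.69 prior degrees of freedom), two-sided, with Benjamini-Hochberg adjustment over all genes and a threshold of 0.05. Adjusted p-values are from limma, except those of the permutation tests. Intervals are 95%. The fit was tested on simulated data. Within-array differences were tested by exact permutation. The number of arrays limits the precision. The labels call replicates biological, without naming the animals.

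The members and lists were chosen with earlier results of these data known. Named were the members, Dicer1, Lpl, in each list up to 4 passing genes with the smallest adjusted p for both times and up to 2 others with the highest mean, and the 5 genes most like Lpin1. Lists cover substrate supply, other acyltransferases, branches, regulators, fasting, clock and cell markers. Alternatives covered normalization, filter, prior, array weights, probe sets, a replicate block and each array left out.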

Additional observations from a re-analysis of the deposited data

Results flagged for a closer look

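Nr1d1, the clock repressor also known as Rev-erb alpha, was the 1 gene whose values at 4 and 2 weeks after Cre differed by the test of that difference. It averaged 11.07 at 4 weeks and 8.43 at 2 weeks, a log2 difference of 2.65 (SE 0.12, limma adjusted p = 0.0155), and 9.14 in controls. The call was lost without any single array, with limma adjusted p-values of 0.0755 to 0.362 and differences of 2.49 to 2.80. None of the 9 lipin and acyltransferase genes was singled out by the same test.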

How the results depend on the processing

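The number of the 9 genes called at 2 weeks (1) became 2 (Lpin1 and Dgat2) with a common median and with dim genes left out. It became 0 when only the compared groups were fitted and 0 with array weights. With quantile normalization it stayed at 1, but the gene was Lpin1 (limma adjusted p = 0.0485) and not Dgat2 (limma adjusted p = 0.0529). The number at 4 weeks (2) became 1 (Lpin1) with quantile normalization and 1 (Lpin1) with every probe set tested, and 3 when only the compared groups were fitted and with array weights. With only the compared groups the 3 were Lpin1, Gpam and Agpat3, and Dgat2 did not pass (limma adjusted p = 0.0605). With array weights they were Lpin1, Gpam and Dgat2. The number for both times (2) became 3 with dim genes left out and with array weights, in each case by the addition of Gpam. With 1 array left out it was 0 to 1 at 2 weeks, 0 to 3 at 4 weeks, 0 to 4 for both times and 0 throughout between the times. Fewer arrays also lower the residual degrees of freedom: over all genes, 41 to 2168 were called at 2 weeks (997 with all arrays), 63 to 1948 at 4 weeks (1643) and 570 to 2788 for both times (2171). Each range also reached above the count with all arrays, which fewer degrees of freedom alone do not account for. The same counts over all genes at 2 weeks were 276 when only the compared groups were fitted and 439 with array weights. They were 1182 with a common median and 1493 with dim genes left out. At 4 weeks they were 1793 with quantile normalization, 1948 when only the compared groups were fitted and 2445 with array weights. For both times they were 2639 with dim genes left out and 2386 with array weights. The unequal changes within the lipins and the Dgat genes kept their direction (9 of 9 alternatives each). Most of these alternatives left out 1 array. As the groups did not overlap in any pair, that could not have changed the direction. No called value changed sign in any alternative run. Mogat1 was among the dim genes left out, so it has no value there.

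The labels link same-numbered arrays of different groups by number only. Their deviations from the group means correlated at -0.07 to 0.11, which cannot exclude a pairing or a shared batch. In a group of 2 arrays the deviations mirror each other, so the 2 and 4 week arrays give 1 value (0.11) for both replicate numbers. With the replicate block, 0 of the 9 genes were called by limma at 2 weeks, 4 weeks or both times, and 0, 2 and 5 of all genes.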

Other observations

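On the 2 week arrays, Lpin1 and the overall distance from the controls ran opposite ways. Replicate 1 lay nearer the controls on the first principal component (6.56, against 24.3 for replicate 2), while Lpin1 was further from the controls there (8.47 and 10.14). Of 16819 genes, 20 (0.119%) were at least as much lower in replicate 1 as Lpin1, which was 1.68 log2 units lower, as a description of these arrays chosen after the values were seen. Dicer1 (8.03 and 7.79) and Lpl (9.11 and 10.80, against 7.10 to 7.36 in controls) were both nearer the controls in replicate 1. Of the 14 fasting and glucocorticoid responsive genes, 10 were lower in replicate 1 than in replicate 2 (71.4%, against 42.6% of all genes). The share was similar in the clock list, 11 of 16 (68.8%), which holds Per1 as well, and 5 of 9 (55.6%) for the lipin and acyltransferase genes. Among the fasting and glucocorticoid responsive genes, Fkbp5 (8.72 and 9.34), Per1 (6.89 and 7.77) and Tat (13.25 and 13.70) were examples lower in replicate 1. Pdk4, Cpt1a, Cyp4a14 and Fgf21, from the same list, went the other way and were higher in replicate 1 than in replicate 2.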
